A study of Rattus norvegicus with 46 samples.

Results

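The 10 genes described here are listed as genes of white fat cells and of the hormones that these cells secrete. They are Lep, Adipoq and Retn (adipokines), Plin1, Plin4 and Cidec (lipid droplet proteins), Lpl, Fabp4 and Pck1 (fatty acid and glycerol supply) and Pparg (their transcription factor). They were chosen by name, as 10 of the 23747 gene symbols in the authors' deposited tables, and were followed across all 8 groups of a rat rotator cuff study. The supraspinatus tendon was cut (tenotomy) and the subacromial bursa, the sac between tendon and acromion, was either removed or kept, and poly-A RNA was sequenced from whole pieces of tissue. The bursa groups were kept bursae at day 3 (6 libraries) and day 14 (6) after tenotomy, and control bursae of rats with no operation (5). The tendon groups were cut tendons with the bursa removed and with it intact, at day 3 (6 each) and at day 14 (6 each), and control tendons of rats with no operation (5). The control bursae and control tendons thus had neither a cut nor a removed bursa, and sham-operated shoulders were not analysed here. The study asked what the bursa does for the cut tendon, so each injured group was set against its control, removed against intact, and day 14 against day 3.

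Adipose tissue stores triglyceride in white adipocytes, each of which holds a single large droplet coated with perilipin 1 and enlarged by Cidec. Lipoprotein lipase frees fatty acids from circulating lipoproteins, Fabp4 carries them in the cell, and Pck1 makes the glycerol backbone to which they are joined. Pparg, with C/EBP alpha, switches these genes on during adipocyte differentiation, and mature adipocytes release leptin, a satiety hormone, and adiponectin, an insulin sensitiser; resistin is also an adipocyte product in rodents. Not all members are restricted to fat: Lpl and Plin4 are also made by muscle, and Fabp4 also by capillary endothelium and macrophages.

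Levels are given as CPM, a gene's counts relative to the size of its library after trimmed mean (TMM) scaling, and libraries held 12425823 to 69947597 counts. Reads of 9 members could be identified by matching transcripts to the deposited gene means, whereas no transcripts matched Pparg, so Pparg is given only from the authors' deposited tables, with signs turned to the order of groups named here. Fold changes are log2 values ± SE from edgeR's quasi-likelihood test, and a gene was called at a Benjamini-Hochberg adjusted p under 0.05 over all features tested. Nothing in the labels ties a library to a rat, so p-values measure the spread between these libraries. Control bursae 1 and 2 stood apart: mitochondrially encoded genes took 47% and 51.3% of their counts, against 12.7 to 16.3% in control bursae 3, 4 and 5. Their brown fat marker genes summed to 7199 and 3810.2 CPM, against 177 to 247 CPM in the other three. The members' results against control bursae are therefore also given without them. Over the 17 bursae the members' log2 levels had a Pearson r with the brown fat markers of -0.04 (Lep) to 0.78 (Fabp4). How much of the members' RNA came from brown fat was not tested. All 8 tendon cell markers tested were higher in control tendons than in control bursae, and so were 3 of 4 synovial lining markers. In tendon the 8 matched skeletal muscle markers summed to 2021 to 23158 CPM in the 24 cut tendons and to 35732 to 57571 CPM in the 5 control tendons, with no overlap. Levels are relative to all RNA of a whole piece of tissue. Fewer adipocytes, less RNA per adipocyte and more RNA of other cells therefore cannot be told apart.

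The uninjured bursa held far more adipocyte RNA than the uninjured tendon. All 9 members tested were higher in control bursae than in control tendons, by log2 fold changes of 3.18 (Plin4) to 7.57 (Pck1), whereas 28.8% of all 17069 features were called higher there. Adipoq, which encodes adiponectin, had 2862, 4051, 4945, 3176 and 3498 CPM in the 5 control bursae, against 16, 61.8, 193, 25.5 and 39.6 CPM in the 5 control tendons (edgeR log2 fold change 5.79 ± 0.62, adjusted p = 3.51e-10). The lowest bursa was thus above every tendon, and the same held for each of the 9 members. The share of all features whose groups do not overlap is not given, so this count describes the members only. Plin4 and Lpl had the smallest differences, with control tendon levels of 68.3 to 139 CPM for Plin4 and 323 to 447 CPM for Lpl. The 8 other adipocyte markers (Lipe, Pnpla2, Cfd, Aqp7, Thrsp, Gpd1, Adrb3 and Cebpa) were all higher in control bursae too, with a median log2 fold change of 5.41 against 0.08 over all features. Without control bursae 1 and 2 all 9 members were still called, from 2.78 ± 0.27 for Lpl to 6.54 ± 0.77 for Lep. The deposited mean of Pparg was 2300.0 normalised counts over the day 3 and control bursae and 104 over the day 3 intact and control tendons in the authors' deposited tables, which were normalised separately.

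**Figure D1:**
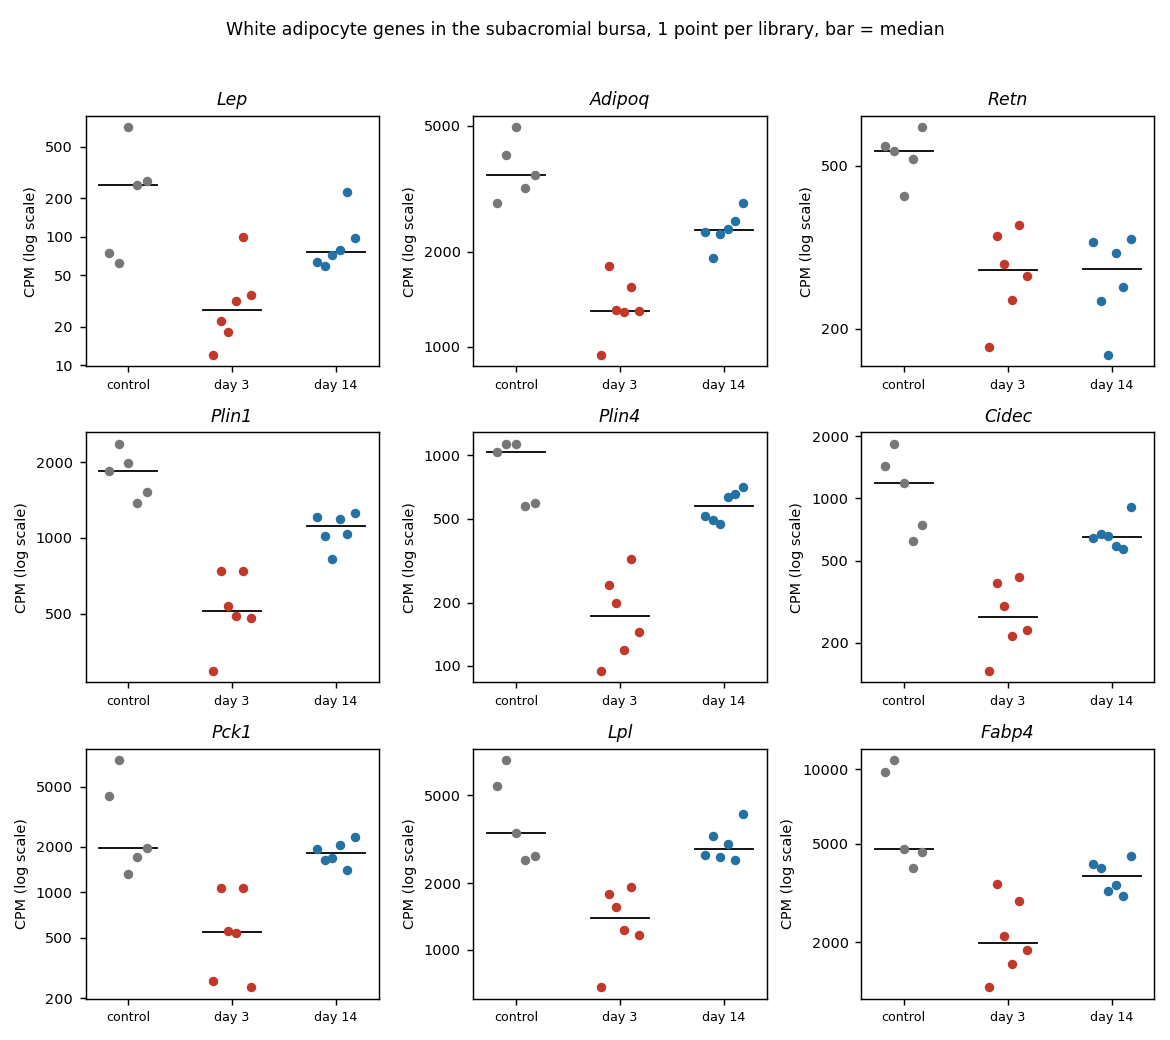
CPM (log axis) of the 9 members with identified reads in control, day 3 and day 14 bursae; each point is a library and each bar a group median. In 8 of the 9 panels every day 3 library lies below every control library, the exception being Lep. The share of all features separated in this way is not given. In the Retn panel the day 14 libraries lie at the day 3 level.

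At day 3 after tenotomy the levels of this RNA in the bursa were lower. All 9 members fell, with and without control bursae 1 and 2. Of the 16116 features tested, 24.1% fell in this comparison and 22.2% rose. Leptin RNA had the lowest fold change of the 9. Lep had 12.1 to 99.4 CPM with a median of 26.8 in the 6 day 3 bursae, against 75, 62.2, 707, 254 and 272 CPM in control bursae 1 to 5 (edgeR -2.87 ± 0.65, adjusted p = 0.00215). Day 3 replicate 5 was the high library at 99.4 CPM, above control bursae 1 and 2, so the groups overlapped. Without those 2 control bursae the Lep fold change was -3.44 ± 0.60 (edgeR adjusted p = 0.000419). Adipoq had 945 to 1798 CPM with a median of 1303 in day 3 bursae, against 2862, 4051, 4945, 3176 and 3498 CPM in control bursae (-1.40 ± 0.18, edgeR adjusted p = 1.19e-05). Retn, which encodes resistin, had 180.4 to 357 CPM with a median of 279 in day 3 bursae, against 557, 544, 422, 518 and 619.8 CPM in control bursae (-0.90 ± 0.19, edgeR adjusted p = 0.00115). Neither gene's groups overlapped, with every day 3 bursa below every control bursa.

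The lipid droplet and lipid supply genes fell as well. Plin1, the perilipin that guards the large droplet, had 296 to 742 CPM with a median of 514 in day 3 bursae, against 1849.9, 2366, 1988, 1381 and 1522 CPM in control bursae (-1.70 ± 0.21, edgeR adjusted p = 1.27e-05). Plin4, a perilipin of small nascent droplets, had 94.5 to 322 CPM with a median of 172 in day 3 bursae, against 1035, 1134, 1128, 577 and 595 CPM in control bursae (-2.21 ± 0.29, edgeR adjusted p = 2.16e-05). Cidec, which fuses droplets, had 146 to 414 CPM with a median of 266 in day 3 bursae, against 1438, 1836, 1182, 624 and 741 CPM in control bursae (-2.0 ± 0.29, edgeR adjusted p = 5.76e-05). In each of these the highest day 3 bursa was below the lowest control bursa. Pck1, the glyceroneogenic enzyme, had 236 to 1062 CPM with a median of 546 in day 3 bursae, against 4360.4, 7479, 1330.4, 1709 and 1951 CPM in control bursae (-2.40 ± 0.47, edgeR adjusted p = 0.000719). Fabp4 had 1316 to 3450.0 CPM with a median of 1993 in day 3 bursae, against 9735, 10879, 4763, 4006 and 4642 CPM in control bursae (-1.57 ± 0.30, edgeR adjusted p = 0.000492). Control bursae 1 and 2 carried the highest Pck1, Fabp4 and Lpl of the 5, the reverse of their place for Lep. Without them the day 3 fold changes were -1.37 ± 0.40 for Pck1, -0.95 ± 0.24 for Fabp4 and -0.99 ± 0.25 for Lpl, all called by edgeR. Lpl had 676 to 1916 CPM with a median of 1391 in day 3 bursae, against 5537, 7225, 3372, 2544 and 2648 CPM in control bursae (-1.58 ± 0.30, edgeR adjusted p = 0.000489). In the authors' deposited table Pparg fell by the same comparison (-1.39 ± 0.39, DESeq2 adjusted p = 0.00143), where 23.0% of the genes with an adjusted p fell. Of 10 macrophage markers tested 8 rose and 0 fell; they summed to 2323 to 2755 CPM in day 3 bursae, against 290.4 to 1213 CPM in control bursae, and its part in the result was not tested.

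The promoters of 8 members were in the RefSeq table (build GRCr8, 13 windows of 250 bases before to 50 after a start); Fabp4 and Lpl were not. The windows were searched on both strands for TTGCNNAA, a site of the kind C/EBP factors bind. It stood in 4 windows, 1 each of Lep, Plin1, Cidec and Pparg, and in 10.6% of all 33469 windows. The windows below belong to the 3 adipokines and to the droplet genes Plin1 and Cidec. All 9 members tested fell at day 3, so the fall does not set these 5 apart. The windows of Plin4, Pck1 and Pparg are not shown, and those of Plin4 and Pck1 held no match. Capitals mark TTGCNNAA, at 69 to 62 bases before the start for Lep (chr4:58626288-58626587, plus strand), 77 to 70 for Plin1 (chr1:143086099-143086398, minus strand) and 209 to 202 for Cidec (chr4:148137066-148137365, minus strand). The Adipoq (chr11:91240120-91240419, minus strand) and Retn (chr12:6508524-6508823, plus strand) windows held no match, which says only that these letters are not in this window.
Lep: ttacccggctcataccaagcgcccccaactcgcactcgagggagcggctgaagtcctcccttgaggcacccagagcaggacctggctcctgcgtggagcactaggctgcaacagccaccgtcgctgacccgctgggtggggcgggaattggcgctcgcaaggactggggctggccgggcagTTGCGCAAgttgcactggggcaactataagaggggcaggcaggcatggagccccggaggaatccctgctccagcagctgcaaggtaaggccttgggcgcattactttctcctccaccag
Plin1: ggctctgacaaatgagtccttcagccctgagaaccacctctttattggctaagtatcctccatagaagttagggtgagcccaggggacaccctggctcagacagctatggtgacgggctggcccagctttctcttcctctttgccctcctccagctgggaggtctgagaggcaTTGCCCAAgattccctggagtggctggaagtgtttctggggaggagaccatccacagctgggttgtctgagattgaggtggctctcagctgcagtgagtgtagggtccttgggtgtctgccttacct
Cidec: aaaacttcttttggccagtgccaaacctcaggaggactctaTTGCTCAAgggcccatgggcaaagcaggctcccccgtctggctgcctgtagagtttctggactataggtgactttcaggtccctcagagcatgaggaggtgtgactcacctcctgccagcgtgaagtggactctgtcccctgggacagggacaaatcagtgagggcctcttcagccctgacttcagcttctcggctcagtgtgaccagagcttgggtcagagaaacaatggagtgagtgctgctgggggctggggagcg
Adipoq: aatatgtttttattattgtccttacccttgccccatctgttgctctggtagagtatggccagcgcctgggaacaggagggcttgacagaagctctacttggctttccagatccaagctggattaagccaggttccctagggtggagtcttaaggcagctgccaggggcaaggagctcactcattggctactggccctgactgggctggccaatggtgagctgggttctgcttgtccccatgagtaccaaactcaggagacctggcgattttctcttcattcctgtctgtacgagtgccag
Retn: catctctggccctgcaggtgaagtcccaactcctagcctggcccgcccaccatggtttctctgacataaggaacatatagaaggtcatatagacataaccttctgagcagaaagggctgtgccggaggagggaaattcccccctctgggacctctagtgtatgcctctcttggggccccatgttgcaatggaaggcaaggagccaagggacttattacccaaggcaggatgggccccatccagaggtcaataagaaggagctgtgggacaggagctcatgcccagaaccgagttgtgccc

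Most tested genes of the 4 lists around these members fell in the day 3 bursa, where 24.1% of all features fell and 22.2% rose. Of the lipid droplet and lipolysis list, 11 of 14 tested genes fell and 0 rose, led by Plin5 (-2.77), Cidea (-2.56) and Fitm2 (-1.91). The hormone-sensitive lipase Lipe was at -1.58 and the triglyceride lipase Pnpla2 at -1.81. Cidea had 1507.5 and 1049.4 CPM in control bursae 1 and 2, but 65.3, 46.4 and 50.6 CPM in control bursae 3, 4 and 5. Day 3 bursae had 11.7 to 199.9 CPM of Cidea and overlapped control bursae 3, 4 and 5. All list counts against control bursae use all 5 of them. Of the fatty acid and triglyceride synthesis and uptake list, 16 of 23 fell, led by the desaturase Scd (-2.96), the glycerol channel Aqp7 (-2.51) and the acyltransferase Dgat2 (-2.18), and 1 rose, the desaturase Scd2 (1.30). Of the adipogenic regulators, 8 of 10 fell, led by Wnt10b (-2.47), Cebpa (-1.53) and Srebf1 (-1.49), and 1 rose, the early differentiation factor Cebpd (0.80). This list was not sorted by whether a gene promotes or restrains adipogenesis, so its counts are not counts of promoting genes. Of the other adipokines and receptors, 8 of 13 fell, led by the beta-3 adrenoceptor Adrb3 (-1.51), Sfrp5 (-1.45) and Nrg4 (-1.25), and 1 rose, Apln (0.82). Cfd, the adipocyte serine protease adipsin, was at -0.33 ± 0.20 and was not called (edgeR adjusted p = 0.2). The list medians were -1.19, -1.70, -1.29 and -0.79 in this order, against -0.06 over all features, and also use all 5 control bursae. The synthesis and uptake list summed to 4958 to 29735 CPM in control bursae and 2151 to 7246 CPM in day 3 bursae, so the groups overlapped. The other adipokines and receptors overlapped as well (3256 to 4909 against 2291 to 3791 CPM). The sums of the lipid droplet and regulator lists did not overlap. Dlk1, a preadipocyte protein that restrains adipogenesis, rose in the authors' deposited table at day 3 (4.43 ± 0.51, DESeq2 adjusted p = 2.36e-16) and at day 14 (6.37 ± 0.38, adjusted p = 9.69e-58). The leptin receptor gene Lepr fell there at both days (-1.95 ± 0.33 at day 3 and -0.93 ± 0.31 at day 14, DESeq2 adjusted p = 3.88e-08 and 0.0203).

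By day 14 the levels of most members in the bursa were between those of day 3 and control. Against control, 3 of 9 members fell (Adipoq, Plin1 and Retn), where 6.94% of features fell and 9.41% rose. Against day 3, 6 of 9 members rose (Adipoq, Plin1, Plin4, Cidec, Pck1 and Lpl), where 9.56% of features rose and 12.3% fell. Adipoq had 1916 to 2843 CPM with a median of 2339 in day 14 bursae, between the control and day 3 groups and overlapping neither (-0.64 ± 0.17 over control, edgeR adjusted p = 0.0198; 0.76 ± 0.17 over day 3, adjusted p = 0.0042). Plin1 had 824 to 1256 CPM with a median of 1114 in day 14 bursae, also between and apart from both (-0.74 ± 0.21 over control, edgeR adjusted p = 0.026; 0.95 ± 0.20 over day 3, adjusted p = 0.00329). Plin4 had 472 to 708 CPM with a median of 576 in day 14 bursae, above every day 3 bursa (1.59 ± 0.28, edgeR adjusted p = 0.000884) and overlapping the controls. Pck1 had 1397 to 2316 CPM with a median of 1817 in day 14 bursae, again above every day 3 bursa (1.53 ± 0.45, edgeR adjusted p = 0.023, or 0.0517 without day 3 replicate 1). The rise over day 3 was 1.21 ± 0.28 for Cidec (edgeR adjusted p = 0.00578; day 14 bursae at 567 to 907 CPM) and 1.10 ± 0.29 for Lpl (adjusted p = 0.0116; day 14 bursae at 2545 to 4136 CPM). Fabp4 (3066 to 4445 CPM in day 14 bursae) and Lep (59.2 to 224 CPM) were at 0.70 ± 0.28 and 1.41 ± 0.61 over day 3 and were not called (edgeR adjusted p = 0.0887 and 0.111). Fabp4 was called without day 3 replicate 2 (edgeR adjusted p = 0.044) and Lep without day 3 replicate 5 (2.03, 0.0209). Over control, Fabp4 was at -0.87 ± 0.29, Cidec at -0.79 ± 0.29 and Plin4 at -0.62 ± 0.29 at day 14, none of them called (edgeR adjusted p = 0.0534, 0.0736 and 0.142). In the authors' deposited table Pparg rose over day 3 (0.82 ± 0.23, DESeq2 adjusted p = 0.00169), where 16.5% of genes rose, and was at -0.58 ± 0.33 over control (adjusted p = 0.213).

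The day 14 against control values depended on the 2 control bursae that stood apart. Without them Lep fell (-2.04 ± 0.59, edgeR adjusted p = 0.035, against -1.46 ± 0.63 and 0.119 with them), and Plin1 no longer passed the test (-0.58 ± 0.23, adjusted p = 0.113). Pck1 and Lpl turned to 0.14 ± 0.41 and 0.09 ± 0.26, from -0.86 ± 0.46 and -0.48 ± 0.30 with all 5 controls, and passed in neither case. Adipoq and Retn were called both ways. Day 14 bursae 1 and 2 themselves held 1262 and 2329 CPM of brown fat markers and the other day 14 bursae 240.4 to 687 CPM. Without control bursae 1 and 2 the day 14 group was thus the one richer in them. Their part in the result was not tested. Leaving out control bursa 4 or 5 instead raised the count of fallen members to 5, and dropping control bursa 3 left Adipoq short of the test (Fabp4 joining in each of these 3 fits; edgeR adjusted p = 0.0508).

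**Figure D2:**
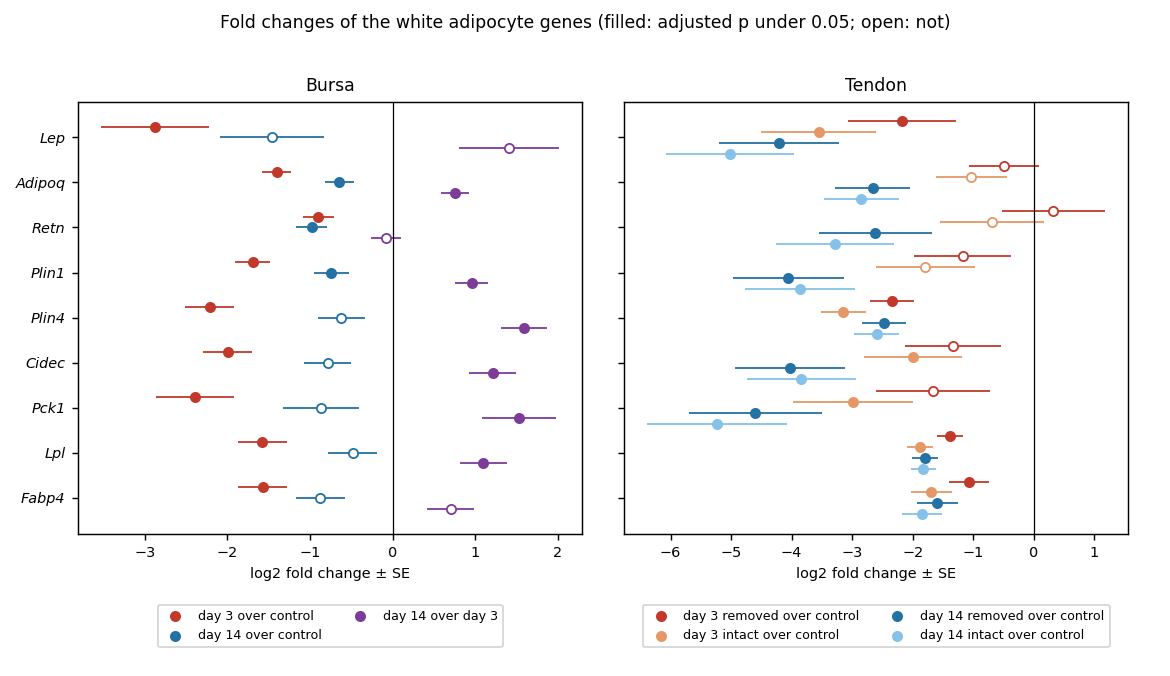
Log2 fold changes ± SE of the 9 members in bursa (left) and tendon (right), with filled points called at an adjusted p under 0.05 and open points not called. In the bursa the day 3 points lie left of the day 14 points for all members but Retn, and in the tendon the day 3 points of Adipoq, Retn and Plin1 are open while all day 14 points are filled.

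Resistin RNA at day 14 could not be told from its day 3 level. Retn had 173 to 330.3 CPM with a median of 279 in day 14 bursae and 180.4 to 357 CPM with a median of 279 in day 3 bursae, and the groups overlapped (-0.08 ± 0.18, edgeR adjusted p = 0.799). Both lay below all 5 control bursae, and Retn was at -0.98 ± 0.19 at day 14 over control (edgeR adjusted p = 0.00323). Set against Adipoq in the same library, Retn counts were 8.54 to 19.5% of Adipoq counts in control bursae, 18.2 to 23.1% at day 3 and 7.6 to 14.1% at day 14. Every day 3 bursa was therefore above every day 14 bursa on this ratio. Lep was 1.54 to 14.3% of Adipoq in control bursae, 1.23 to 6.43% at day 3 and 2.75 to 8.95% at day 14, with replicate 5 the highest at both days. Within the controls the Lep ratio was 2.62, 1.54, 14.3, 8 and 7.76% in replicates 1 to 5. The libraries with the low ratios, 1 and 2, were those with 3871 and 1447 CPM of Ucp1, the heat-producing uncoupler of brown fat, which was at 5.68, 0 and 0 CPM in controls 3, 4 and 5. Pck1 was 26.9 to 185% of Adipoq in control bursae, 18.1 to 68.7% at day 3 and 55.9 to 87.3% at day 14, and among the controls it was highest in replicates 1 and 2. Plin4 was 17 to 36.1% of Adipoq in control bursae, 9.22 to 20.8% at day 3 and 20.8 to 26.8% at day 14, so that the members did not move in a fixed proportion. These ratios shift when either gene shifts and carry no test. Retn rests on the least exact transcript match of the 9 members (1.3% at most from the deposited means), and the authors' deposited table gives -0.07 ± 0.18 for day 14 over day 3 (DESeq2 adjusted p = 0.804).

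**Figure D3:**
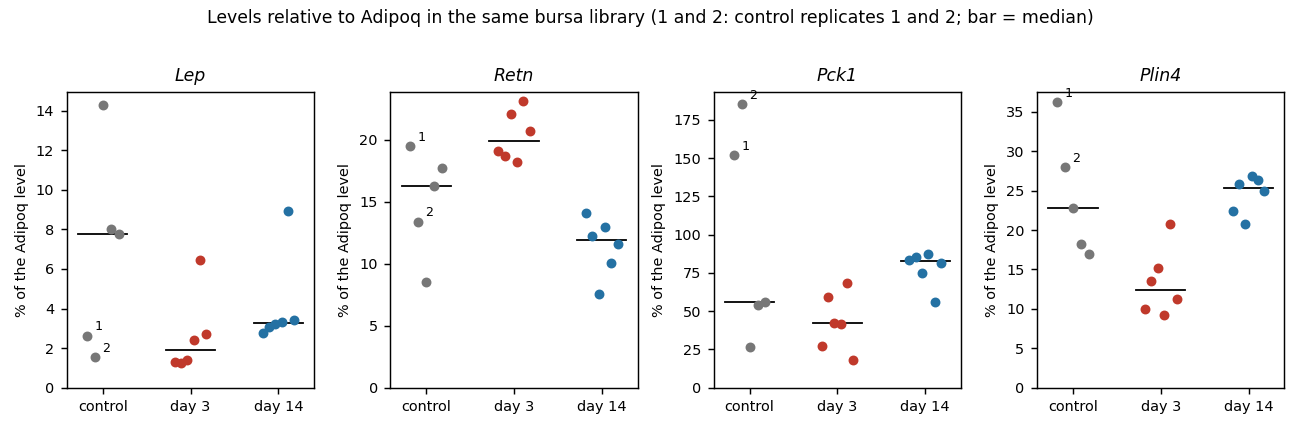
Counts of Lep, Retn, Pck1 and Plin4 as a percent of the Adipoq counts of the same bursa library; points are libraries, bars are group medians, and 1 and 2 mark control replicates 1 and 2. Control replicates 1 and 2 are low for Lep and high for Pck1, and for Retn all day 3 libraries lie above all day 14 libraries.

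At day 14 the lists are read against 6.94% of all features that fell and 9.41% that rose over control, and 9.56% that rose and 12.3% that fell over day 3. At day 14 over control, 3 of 14 lipid droplet and lipolysis genes fell, namely the lipolysis inhibitor G0s2 (-1.67), the monoglyceride lipase Mgll (-0.86) and Cav1 (-0.57). Of the synthesis and uptake genes 1 of 23 fell, Aqp7 (-1.28), a share near that of all features. Of the regulators 4 of 10 fell, led by Nr1h3 (-0.84), Cebpa (-0.74) and Zfp423 (-0.67), and of the other adipokines and receptors 2 of 13 fell, Adrb3 (-1.09) and Rbp4 (-0.63). At day 14 over day 3, 3 of 14 lipolysis genes rose, Lipe (1.04), Fitm2 (1.02) and Mgll (0.75). In the synthesis list 4 of 23 genes rose, led by Scd (4.54), Lpin1 (1.76) and Aqp7 (1.23), and 1 fell, Mogat2 (-1.26). Scd, a stearoyl-CoA desaturase, was at 1.58 ± 1.10 over control at day 14 and was not called (edgeR adjusted p = 0.333). Regulators, again not sorted by role, rose in 5 of 10 cases, led by Wnt10b (2.30), Cebpa (0.79) and Ebf2 (0.78), and none fell.

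In cut tendons, where levels were far lower than in bursa, Adipoq, Plin1 and Retn were called lower than control at day 14 and not at day 3. At day 3, 4 of 9 members fell with the bursa removed (Lep, Plin4, Fabp4 and Lpl; 33.3% of 16188 features fell, a share near that of the members). With it intact, 6 of 9 fell (the same 4 with Pck1 and Cidec; 34.5% fell and 31.0% rose). The day 3 intact count was 4 to 7 with a library left out: the Cidec call ended in 6 such fits (edgeR adjusted p = 0.226 without control tendon 3, where its fold change was -1.17), and the Pck1 call without control tendon 2 (adjusted p = 0.0612). At day 14 all 9 fell in both groups, where 32.5% of features fell with the bursa removed and 33.0% with it intact. Adipoq had 15 to 125 CPM with a median of 27.5 in day 3 removed tendons and 10.5 to 70.9 CPM with a median of 28.1 in day 3 intact tendons, against 16, 61.8, 193, 25.5 and 39.6 CPM in control tendons, and overlapped them (-0.49 ± 0.58 and -1.03 ± 0.58, edgeR adjusted p = 0.483 and 0.124). By day 14 it had 4.98 to 15 CPM with a median of 12.4 in removed tendons and 5.96 to 13.5 CPM with a median of 9.93 in intact tendons, all below the lowest control (-2.66 ± 0.62 and -2.85 ± 0.62, edgeR adjusted p = 0.000471 and 0.000242). Lep was scarce in cut tendons, with 0.0623 to 4.2 CPM in day 3 removed, 0 to 0.62 CPM in day 3 intact, 0 to 0.368 CPM in day 14 removed and 0 to 0.279 CPM in day 14 intact tendons, against 0.532, 2.16, 15.4, 1.05 and 1.48 CPM in control tendons. Its fold changes were -2.17 ± 0.89, -3.55 ± 0.95, -4.21 ± 0.99 and -5.01 ± 1.05 in that order. Plin1 was at -1.17 ± 0.80 and -1.79 ± 0.81 at day 3 (edgeR adjusted p = 0.209 and 0.0558) and fell by day 14 (-4.06 ± 0.92 removed, -3.86 ± 0.91 intact). In day 3 intact tendons Plin1 was called without control tendon 1, 4 or 5 or without day 3 intact replicate 1 (edgeR adjusted p = 0.0171 to 0.0426). In intact tendons its day 14 over day 3 difference was not called (-2.07, edgeR adjusted p = 0.0554), so a later fall is not shown there. Retn at day 3 was at 0.32 ± 0.86 removed and -0.69 ± 0.86 intact, and fell by day 14 (-2.62 ± 0.93 and -3.28 ± 0.97), although without control tendon 3 the day 14 removed value was -1.72 and no longer called (edgeR adjusted p = 0.116). The authors' deposited table gave -0.44 ± 0.38 for Pparg in day 3 removed (DESeq2 adjusted p = 0.334) and falls of -0.93 ± 0.32 in day 3 intact, -1.01 ± 0.31 in day 14 removed and -1.26 ± 0.29 in day 14 intact tendons, where 30.0%, 29.2% and 29.7% of genes fell.

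**Figure D4:**
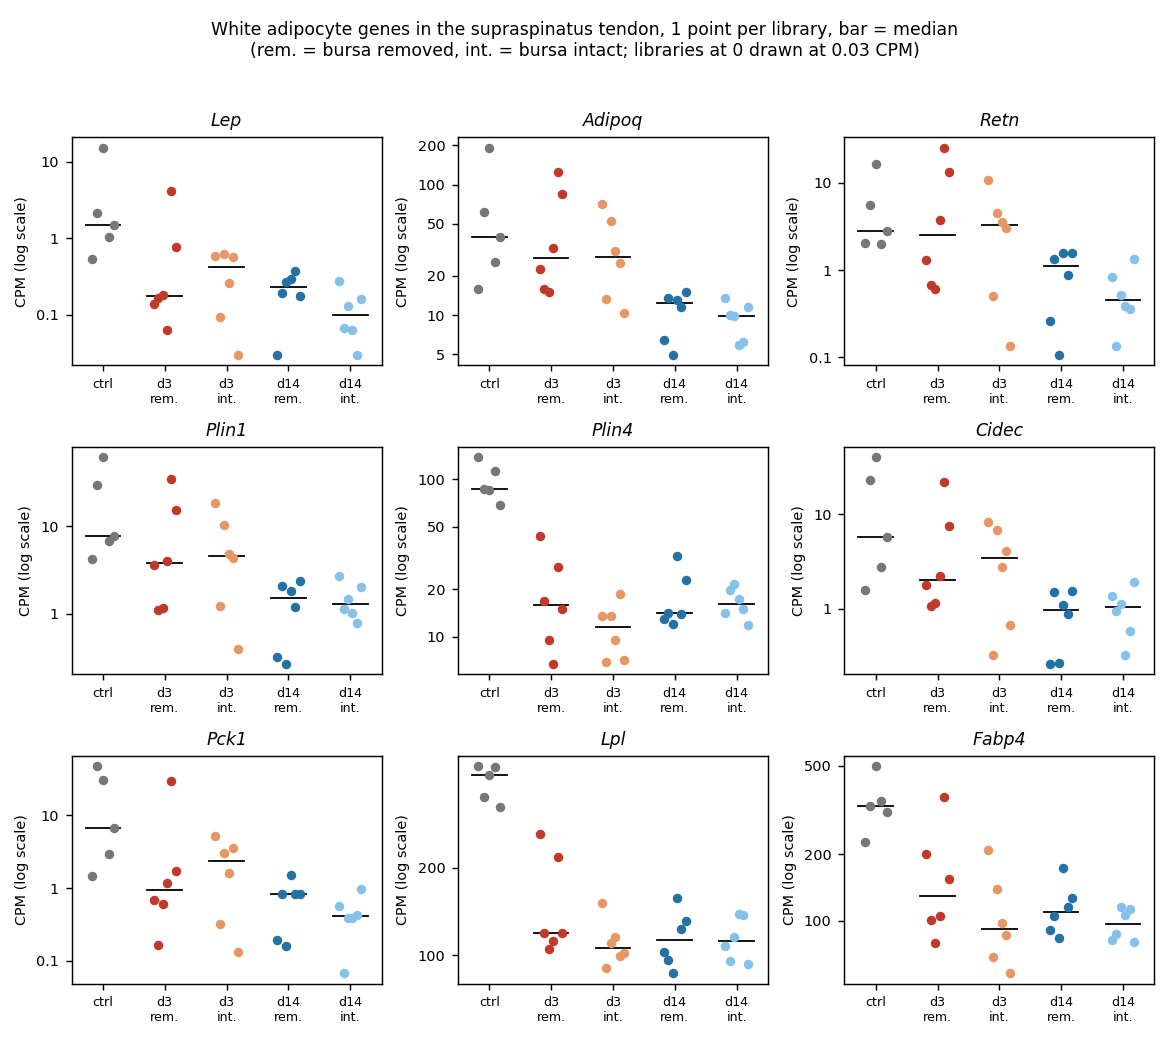
CPM (log axis) of the 9 members in control tendons, day 3 tendons with the bursa removed and intact, and day 14 tendons with the bursa removed and intact; points are libraries, bars are medians, and libraries at 0 are drawn at 0.03 CPM. Plin4 and Lpl lie below all controls at both days, and their day 14 levels overlap those of day 3, while Adipoq, Retn, Plin1, Cidec and Pck1 spread widely at day 3 and are low at day 14.

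The members split into different courses in tendon. Plin4 had 6.73 to 43.8 CPM with a median of 16 in day 3 removed and 6.91 to 18.8 CPM with a median of 11.5 in day 3 intact tendons, against 139, 87.3, 86.2, 113 and 68.3 CPM in control tendons (-2.34 ± 0.37 and -3.14 ± 0.38, edgeR adjusted p = 3.74e-06 and 4.96e-08), and 12.1 to 32.5 CPM in day 14 removed and 11.9 to 21.8 CPM in day 14 intact tendons. Lpl had 105 to 262 CPM with a median of 119 in day 3 removed and 90.4 to 152 CPM with a median of 106 in day 3 intact tendons, against 447, 349.8, 418, 445 and 323 CPM in control tendons (-1.38 ± 0.21 and -1.88 ± 0.21, edgeR adjusted p = 2.65e-06 and 1.81e-08). Neither gene overlapped its controls at either day, and day 14 levels overlapped day 3 levels. Fabp4 had 79 to 363 CPM in day 3 removed and 57.9 to 209 CPM in day 3 intact tendons, against 227, 329.9, 499, 347 and 309.7 CPM in control tendons (-1.07 ± 0.33 and -1.69 ± 0.33). Among the 24 cut tendons the log2 level of these genes ran with the summed muscle markers, with a Pearson r of 0.73 for Plin4, 0.69 for Lpl and 0.57 for Fabp4. The other 6 members had r between -0.02 (Adipoq) and 0.11 (Pck1). These libraries share their groups and scaling, so the values are a description. Among the control tendons, replicate 1 had the highest Plin4 and the lowest Adipoq, while replicate 3 had the highest Adipoq and Lep. Adding the muscle level to the fit left 0 of 9 members called at day 3 with the bursa removed or intact. At day 14 it left 6 of 9 with the bursa removed and 3 of 9 with it intact. The share of all features called with this term is not given, so the counts cannot be read as particular to the members. With that term Adipoq still fell at day 14 (-2.89 ± 0.90 removed and -3.15 ± 1.10 intact, edgeR adjusted p = 0.014 and 0.031), whereas Plin4 was at -0.64 ± 0.41 and -0.98 ± 0.47 at day 3. Muscle RNA and injury moved together, so their parts cannot be told apart. Macrophage markers also moved: 8 of 10 rose in day 3 removed, 10 of 10 in day 3 intact and 6 of 10 in each day 14 group. In that order they summed to 1488 to 2317, 1857 to 2234, 921 to 1036 (day 14 removed) and 934 to 1041 CPM (day 14 intact), against 342 to 779 CPM in control tendons. Their part in the result was not tested.

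Single tendon libraries carried much of the adipocyte RNA. Control tendon 3 had 193 CPM of Adipoq and 15.4 CPM of Lep, and control tendon 2 had 47.1 CPM of Pck1, where control tendons 1, 4 and 5 had 1.45 to 6.6 CPM. Day 3 removed tendon 5 had 125 CPM of Adipoq, 29.4 CPM of Pck1 and 25.5 CPM of Retn, each the highest of the 24 cut tendons. Without it, 7 of 9 members fell in the day 3 removed tendons, Plin1, Pck1 and Cidec joining the 4 named above, and Retn was at -0.58. Leaving out control tendon 3 also ended the call for Lep at day 3 in the removed tendons (edgeR adjusted p = 0.628) and in the intact tendons (0.0654). In the removed tendons the Lep call also ended without day 3 removed replicate 1, 2, 3, 4 or 6 (edgeR adjusted p = 0.0616 to 0.0735).

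In day 14 tendons with the bursa intact, 33.0% of all features fell and 33.1% rose. There 8 of 14 lipid droplet and lipolysis genes fell and 4 rose, with the largest changes in G0s2 (-3.17), Plin5 (-2.90) and Cidea (-2.73). In the synthesis and uptake list 13 of 22 fell and 5 rose, with the largest changes in Thrsp (-4.20), Aqp7 (-3.71) and Gpd1 (-2.95), while the fatty acid synthase Fasn (0.66) was among those that rose. Regulators fell in 8 of 9 cases and 1 rose, Cebpa, at 0.46 ± 0.19 at day 14 and 1.47 ± 0.19 at day 3 with the bursa intact (edgeR adjusted p = 0.032 and 1.49e-07). In the bursa the same gene fell at day 3 (-1.53 ± 0.18). The bursa response minus the tendon response at day 14 was -1.24 ± 0.27 (edgeR adjusted p = 0.00039). Angptl4, an inhibitor of the lipoprotein lipase protein, rose in day 3 tendons (3.05 ± 0.48 removed and 2.84 ± 0.48 intact). Lpl RNA fell in the same tendons, and whether these changes are linked was not tested. Among the other adipokines and receptors 8 of 12 fell and 2 rose.

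Removing the bursa was not followed by a detectable change in any member. At day 3, 0 of 9 members were called between removed and intact tendons, where 0% of the 16188 features were called by edgeR. There 2 of 9 members and 1279 features had an unadjusted p under 0.05, and DESeq2 called 0 of 9. At day 14, 0 of 9 were called, again with 0% of features. There 0 of 9 members and 203 features had an unadjusted p under 0.05, and DESeq2 called 0 of 9. Removed over intact at day 3, the differences were 1.38 ± 0.90 for Lep, 1.31 ± 0.94 for Pck1, 1.01 ± 0.82 for Retn, and 0.80 ± 0.35 for Plin4. They were 0.66 ± 0.78 for Cidec, 0.62 ± 0.32 for Fabp4, 0.62 ± 0.78 for Plin1, 0.54 ± 0.56 for Adipoq and 0.50 ± 0.20 for Lpl. Day 3 removed replicate 5 set the direction of 4 of them: without it Lep was at -0.40, Pck1 at -1.39, Plin1 at -0.38 and Cidec at -0.46. At day 14 the differences ran from -0.20 ± 0.93 (Plin1) to 0.81 ± 1.07 (Lep), with Plin4 at 0.13 ± 0.35 and Lpl at 0.02 ± 0.20. For Lpl, the most precisely measured, removed tendons had 105 to 262 CPM and intact tendons 90.4 to 152 CPM at day 3. The authors' deposited tables for removed over intact followed a fit with the replicate number as a block more closely than one without it (Pearson r 0.931 against 0.858 across genes at day 3, and 0.926 against 0.809 at day 14). With that block Pck1 at day 3 was at -0.04 ± 1.01 in place of 1.31 ± 0.94, and the authors' deposited table gave -0.17 ± 0.89. Adipoq was at 0.34 ± 0.77 with the block and Lpl at 0.42 ± 0.17, and 0 of the 8 members tested in that fit were called at either day (Lep was too low to enter it). The share of all features called with the block is not given.

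Adipoq was lower at day 14 than at day 3 in tendon, whether the bursa was removed or intact, and higher at day 14 than at day 3 in the bursa. With the bursa removed 5 of 9 fell from day 3 (Adipoq, Plin1, Pck1, Cidec and Retn; 21.7% of features fell), and with it intact 2 of 9 fell (Adipoq and Retn; 20.4% fell, so that the intact count is at the share of all features). Adipoq at day 14 over day 3 was at -2.17 ± 0.59 removed and -1.82 ± 0.59 intact (edgeR adjusted p = 0.00371 and 0.0143), although the levels of the 2 days overlapped. Plin4 and Lpl showed no called change in either group, with Lpl at -0.42 ± 0.20 removed and 0.06 ± 0.20 intact. In the removed tendons the count depended on day 3 replicate 5: without it 1 of 9 members fell, and Pck1 was at -0.25 in place of -2.93. In the intact tendons, 1 member was called without day 14 replicate 2, 4 or 5 or day 3 replicate 1, and 4 were called without day 3 replicate 2, with Adipoq called in every such fit.

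Whether injury changed the members differently in bursa and tendon was tested as a difference of responses, bursa minus tendon with the bursa intact, each over its own control. At day 3 the difference was called for 0 of 9 members, where 24.1% of the 17069 features were called by edgeR. Of the 9, 0 had an unadjusted p under 0.05 and DESeq2 called 0 of 9. The day 3 differences were -0.46 ± 0.69 for Adipoq, -0.29 ± 0.92 for Retn, -0.09 ± 0.94 for Cidec, 0.01 ± 0.81 for Plin1 and 0.03 ± 0.45 for Fabp4. They were 0.21 ± 0.35 for Lpl, 0.50 ± 1.13 for Pck1, 0.59 ± 1.09 for Lep and 0.84 ± 0.48 for Plin4. Without control bursae 1 and 2 the difference for Lpl passed the test (0.88 ± 0.35, edgeR adjusted p = 0.0496). At day 14 the fall in level was smaller in the bursa for 7 of 9 members, where 15.3% of features had a higher response in the bursa. The difference was 4.33 ± 1.26 for Pck1 (edgeR adjusted p = 0.00696), 3.49 ± 1.30 for Lep (0.0337) and 3.09 ± 0.98 for Plin1 (0.0132). It was 2.17 ± 0.70 for Adipoq (edgeR adjusted p = 0.0138), 1.94 ± 0.48 for Plin4 (0.00171), 3.01 ± 0.98 for Cidec (0.0146) and 1.31 ± 0.35 for Lpl (0.0036). The largest differences rest on few tendon counts. Day 14 intact tendons held 1 to 18 counts of Pck1, 0 to 6 of Lep, 11 to 58 of Plin1 and 5 to 36 of Cidec. They held 86 to 290 counts of Adipoq, 209 to 503 of Plin4 and 1421 to 2670 of Lpl. Retn (2.26 ± 1.02) and Fabp4 (0.94 ± 0.45) were not called (edgeR adjusted p = 0.0804 and 0.102). Without control bursae 1 and 2 the day 14 count was again 7, with Fabp4 called (1.61 ± 0.48, edgeR adjusted p = 0.00584) and Lep not (2.98 ± 1.33, 0.0677). Without control tendon 3, the control tendon richest in Adipoq, 3 of 9 members were called, and with the muscle level in the fit 4 were.

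**Figure D5:**
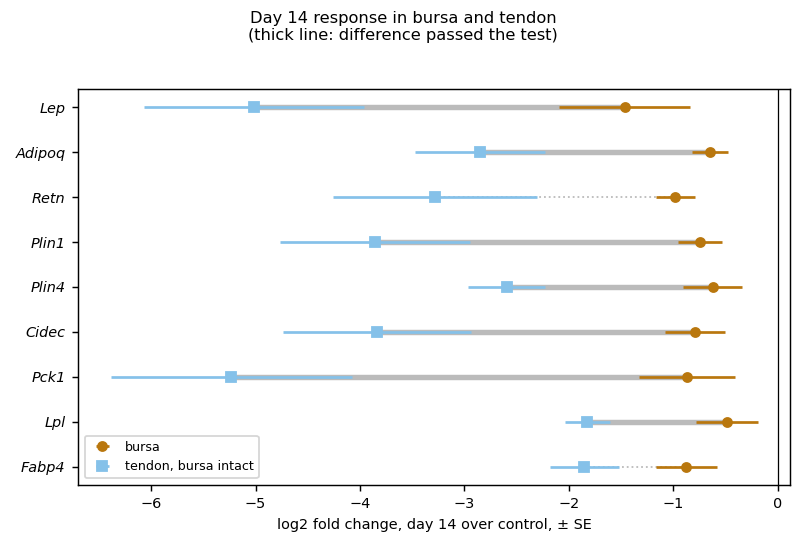
Log2 fold change ± SE at day 14 over control for each of the 9 members in bursa and in tendon with the bursa intact. The tendon value lies below the bursa value for every member, and the gap passed the test for 7 of the 9.

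Across libraries the members moved together, but not equally. Over the 17 bursae the 36 pairs of members had Pearson correlations of log2 CPM between 0.471 and 0.978 (median 0.867), and over the 29 tendons between 0.336 and 0.973 (median 0.817). These libraries share groups and scaling, so the values describe how the genes varied and carry no p. Of 12102 other genes with a mean of at least 1 CPM over all libraries, the 6 whose log2 CPM correlated most with the members' averaged standardised levels were Ces1d (0.96), Slc36a2 (0.94), LOC691485 (0.93), Lipe (0.93), Cdo1 (0.92) and Aqp7 (0.92), as the mean of Pearson r over the 17 bursae and over the 29 tendons. Ces1d encodes a carboxylesterase, Lipe the hormone-sensitive lipase, Cdo1 cysteine dioxygenase and Aqp7 a glycerol channel.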

How the data were processed

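Poly-A RNA of 17 bursae and 29 tendons was sequenced; reads were demultiplexed with bcl2fastq 2.19 and quantified with kallisto 0.44.0, per the submitters' processing notes, and no source used here names the genome build. The authors deposited estimated counts per transcript (whole numbers, 31715 transcripts, 46 libraries) and 11 gene tables from DESeq2, which hold mean normalised signal, log2 fold change, Wald score, p-value and adjusted p, per the file headers. The deposited log2 fold changes were turned to the direction named in the text. No file used here pairs transcripts with symbols, so transcripts were named where their sums matched the deposited gene means: 13852 of 23747 symbols matched, covering 88.22 to 93.44% of each library's counts, and recomputed fold changes had a Pearson r of 0.9986 with the deposited ones over 125258 values. Unmatched transcripts stayed in the tests as features, and 1 unnamed row per deposited table was left out.

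Counts were fitted with edgeR 4.0.16 (R 4.3.3; filterByExpr, TMM, robust quasi-likelihood) over the 17 bursae, the 29 tendons or all 46 libraries, with Benjamini-Hochberg adjustment over all features, after testing on simulated data. Promoters were read from RefSeq. Alternatives were DESeq2 1.42.0, RLE scaling, no filter, only the groups compared, a replicate block, each library left out, control bursae 1 and 2 left out, muscle level as a covariate and, chosen after seeing the data, the first matched transcript alone. The members and lists were chosen with earlier results of these data known. By rule the text names the members, some in a comparison only through counts and ranges, up to 3 called genes with the largest change per list and genes whose role a sentence turns on.

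Labels do not tie libraries to rats, so the main fits have no block. Same-numbered removed and intact tendons had deviations correlated at 0.0423 to 0.334 at day 3 (over 0.1 in 3 of 6 pairs) and 0.0644 to 0.223 at day 14 (5 of 6). The deposited removed against intact values followed a fit with a block more closely. A pairing of these tendons therefore remains possible, and the main fits ignore it.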

Additional observations from a re-analysis of the deposited data

Results flagged for a closer look

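Single libraries stood apart from the rest of their group in 9 of 72 tests. The cut-off gives about 1 in 20 for independent tests of normally distributed values. These tests took CPM of 9 members from the same libraries, so no excess over that rate is read from the count. Lep was 99.4 CPM in day 3 bursa replicate 5 and 224 CPM in day 14 bursa replicate 5, and Cidec was 907 CPM in day 14 bursa replicate 6. In day 3 removed tendon replicate 5, Lep was 4.2 CPM, Pck1 29.4 CPM and Cidec 22.2 CPM. In control tendon replicate 3, Lep was 15.4 CPM, Adipoq 193 CPM and Retn 16.6 CPM.

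The day 14 response differed between bursa and intact tendon by a test of the difference (edgeR, bursa minus tendon, log2) for Lep at 3.49, Adipoq at 2.17, Plin1 at 3.09, Plin4 at 1.94, Pck1 at 4.33, Cidec at 3.01 and Lpl at 1.31. Lep, Pck1, Cidec and Plin1 had few counts in those tendons.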

How the results depend on the processing

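The 9 falls in day 3 bursae, the 9 higher members in control bursae and the 0 calls between removed and intact tendons held under each alternative run. For day 14 bursae against control, the 3 fallen members became 5 by DESeq2 and 2 to 5 with a library left out. With the muscle level as a covariate 0 members were called in day 3 removed and in day 3 intact tendons. With it 3 were called in day 14 intact tendons and 4 in the day 14 response difference. The share of all features called with that covariate is not given. Leaving out a library gave 3 to 7 in day 3 removed tendons, 1 to 7 in removed and 1 to 4 in intact tendons for day 14 over day 3, and 3 to 8 in the day 14 response difference. For intact tendons over time DESeq2 called 5 and a fit of only those groups 4. Without control bursae 1 and 2 the day 3 response difference was called for 1.

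The replicate number as a block left 1 called member in day 14 bursae, 2 in day 3 removed tendons, 3 in removed and 1 in intact tendons for day 14 over day 3; in the other comparisons the count stayed within 1.5 times. Same-numbered removed and intact tendons correlated best with their own number in 4 of 6 pairs at day 3 and 6 of 6 at day 14, a hint from the data and not the design. With the block Retn in day 3 removed tendons was -0.785 and Pck1 in day 3 removed over intact -0.0419.

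Signs turned in 69 values of 25 results, none called under the alternative and 1 called before, Fabp4 in day 3 removed tendons (0.0652 with muscle). Without control bursae 1 and 2, Pck1 and Lpl in day 14 bursae were 0.143 and 0.0925, and Cidec in the day 3 response difference 0.452. With muscle, Plin4 and Lpl in day 14 removed over intact were -0.256 and -0.182, Lpl in intact tendons over time -0.19, and Plin1 and Fabp4 in the day 3 response difference -0.0301 and -0.109. That difference was 0.0951 for Adipoq and -0.00339 for Plin1 with the first transcript, -0.0039 for Plin1 with no filter and 0.0219 for Cidec with only those groups. With a library left out, other log2 values crossed 0. In day 14 over day 3 bursa the ranges were Retn -0.177 to 0.021. In the day 3 response difference the ranges were Cidec -0.911 to 0.276, Fabp4 -0.145 to 0.308, Lep -1.06 to 1.31, Pck1 -0.286 to 1.02, Plin1 -0.847 to 0.634, Retn -1.18 to 0.364. In day 14 removed over intact the ranges were Cidec -0.383 to 0.0646, Lpl -0.0879 to 0.0944, Plin1 -0.42 to 0.0426, Plin4 -0.13 to 0.22. In day 3 intact tendon over control the ranges were Retn -1.32 to 0.212. In day 3 removed tendon over control the ranges were Adipoq -0.986 to 0.423, Retn -0.584 to 1.22. In day 3 removed over intact the ranges were Cidec -0.464 to 1.03, Lep -0.398 to 1.61, Pck1 -1.39 to 1.71, Plin1 -0.377 to 1.25. In intact tendon day 14 over day 3 the ranges were Fabp4 -0.306 to 0.11, Lpl -0.0163 to 0.144. In removed tendon day 14 over day 3 the ranges were Plin4 -0.384 to 0.269. The causes were not tested. Depth limits Lep in cut tendons most, and Pck1, Cidec, Plin1 and Retn had few counts there at day 14 too.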
